A study of Mus musculus and Rattus norvegicus with 8 samples.

Results

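The transcripts described are those of 9 skeletal muscle genes, most of them isoforms of fast fibres, measured in whole lung of ventilated and spontaneously breathing mice and rats: Acta1, Ckm, Mb, Tnnt3, Tnni2, Tnnc2, Atp2a1, Pvalb and Mylpf. A probe set was taken where 1 of these was its only gene symbol. That gave 15 of 12422 mouse probe sets, covering all 9 genes, and 7 of 8740 rat probe sets, covering 7 genes. No rat probe set carried Mb or Mylpf as its only symbol, so these were measured in the mouse alone. In all, 22 of 21162 probe sets and 9 of 9933 gene symbols were taken.

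The series holds 8 lung samples, each on 1 Affymetrix expression array of its species. The mouse groups were 2 spontaneously breathing controls and 2 ventilated mice, male C57BL6 aged 7 to 8 weeks. Ventilation of the mice was at a tidal volume of 17 ml/kg over 6 hours, or of 35 ml/kg over 2 hours, and the labels do not say which array had which. The rat groups were 2 controls and 2 rats ventilated with room air at 12 ml/kg for 5 hours, male Wistar aged 8 weeks, and the rat controls breathed through the same kind of tracheal cannula. The labels do not say whether a sample was 1 animal, and how the lungs were dissected is not given in the sources used here. With 2 arrays a group, p-values measure the spread between these samples, which may be technical. Of the lung epithelial and endothelial markers, 8 on the mouse array and 10 on the rat array, 0 were under the signal floor on all 4 arrays.

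Striated muscle shortens when myosin pulls on actin filaments, and the troponin complex on those filaments lets this happen only when calcium is present. Fast fibres of limb, chest wall and diaphragm build this machinery from their own isoforms of actin, troponin and myosin light chain, clear calcium with their own pump and buffer, and recharge ATP with muscle creatine kinase. Lung parenchyma has no skeletal muscle fibres of its own. Rodent pulmonary veins carry a sleeve of cardiac muscle, which uses myoglobin and creatine kinase as well.

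For orientation, the 250 bases before the transcription start are printed for the mouse genes of the 3 members with the largest rat log2 changes. The sequences are from RefSeq, build GRCm38.p6, 5′ to 3′ on the gene's strand, and rat promoters were not used. Capitals mark E-boxes (CANNTG, the site of myogenic bHLH factors), the CArG box of serum response factor, the MEF2 site and TATAAA.
Mouse Ckm, chr7:19410844-19411093, forward strand: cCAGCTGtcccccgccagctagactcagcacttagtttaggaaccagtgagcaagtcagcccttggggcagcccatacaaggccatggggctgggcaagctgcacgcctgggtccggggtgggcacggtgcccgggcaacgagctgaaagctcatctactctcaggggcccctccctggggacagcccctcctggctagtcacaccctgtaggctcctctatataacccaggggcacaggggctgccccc
Mouse Acta1, chr8:123894776-123895025, reverse strand: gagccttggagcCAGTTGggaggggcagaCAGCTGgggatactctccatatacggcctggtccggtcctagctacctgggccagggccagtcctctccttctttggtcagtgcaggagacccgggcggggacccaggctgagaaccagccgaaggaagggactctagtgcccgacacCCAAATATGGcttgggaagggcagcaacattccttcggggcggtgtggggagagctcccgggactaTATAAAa
Mouse Tnnc2, chr2:164779735-164779984, reverse strand: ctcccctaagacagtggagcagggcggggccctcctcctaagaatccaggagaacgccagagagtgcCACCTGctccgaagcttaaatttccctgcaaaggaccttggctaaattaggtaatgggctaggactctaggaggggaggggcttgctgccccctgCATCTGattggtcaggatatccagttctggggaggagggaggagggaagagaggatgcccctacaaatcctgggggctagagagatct
Acta1 held 2 E-boxes, a CArG box and TATAAA, Tnnc2 held 2 E-boxes, and Ckm held 1. By gene, 3 of the 7 members in the table (Acta1, Mb and Tnnc2) had a window with at least 2 E-boxes. By window it was 5 of 10, with 3 of the 5 being alternative and partly overlapping windows of Mb, against 31.8% of all 32851 windows of that length. The CArG box was found in Acta1 alone, against 1.47% of all windows, the MEF2 site in Pvalb alone, against 2.92%, and TATAAA in Acta1 alone, against 12.4%. Both strands were searched, and a match describes letters, not a bound site.

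In the rat, the filament, troponin and creatine kinase transcripts were brighter on both ventilated arrays. Of the 7 members, 6 had both ventilated signals above both controls, where 27.8% of all 3876 genes tested did. All 7 log2 changes were above 0, against 49.3% of all genes, with a median of 0.49 for the members and -0.01 for all genes. None of the 7 passed limma's test at an adjusted p under 0.05, where 2.48% of genes were called higher and 3.3% lower. Each rat call below rests on all 4 rat arrays and was not kept without any 1 of them. Such a fit leaves 1 array in a group, so it cannot tell dependence on that array from fewer samples. At an unadjusted p under 0.05, 3 members were higher, where 13.1% of all genes were. All 7 were tested, with every array above the signal floor, which was 11.5 in the rat.

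Acta1, the actin of the skeletal muscle thin filament, had normalised signals of 365 and 293 in the controls and 509 and 539 in the ventilated rats. The means were 329 ± 50.8 and 524 ± 21.2 (SD, n = 2 each). The log2 change was 0.68 ± 0.15 (SE; limma, adjusted p = 0.0583). The groups were apart by more than the distance between the arrays of either group. Skeletal actin is nearly identical to the cardiac and smooth muscle actins, whose transcripts can share probes with it. Actc1, the cardiac actin gene, had signals of 808 and 741 against 743 and 833. Acta2, the smooth muscle actin gene, had 1107 and 1135 against 1118 and 1224. In both genes the groups overlapped (both chosen after their values were seen). The part of shared probes in the Acta1 values was not tested.

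Ckm, the muscle creatine kinase that buffers ATP, had signals of 188 and 123 in the controls and 271 and 291 in the ventilated rats, a log2 change of 0.89 ± 0.23 (SE; limma, adjusted p = 0.0767). It had the largest log2 change of the 7 members, and its controls differed more from each other than its ventilated arrays did. Acta1 and Ckm were near the threshold. Under scaling to a common median the limma adjusted p was 0.0335 for Acta1 and 0.0465 for Ckm, and that scaling moved the median of all rat genes by 0.0328 on the log2 scale. Over all alternatives in which the members were tested, it ranged from 0.0335 to 0.355 for Acta1 and from 0.0465 to 0.400 for Ckm.

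The troponin genes encode the calcium switch of the thin filament. Tnnc2, the calcium-binding subunit of fast fibres, had signals of 53.0 and 76.0 in the controls and 105 and 94.6 in the ventilated rats, a log2 change of 0.65 ± 0.24 (SE; limma, adjusted p = 0.162). Tnnt3, the subunit that ties the complex to tropomyosin, had 89.8 and 96.3 against 147 and 113, a log2 change of 0.47 ± 0.21 (SE; adjusted p = 0.219). Tnni2, the inhibitory subunit, had 34.8 and 47.0 against 58.3 and 55.3, a log2 change of 0.49 ± 0.25 (SE; adjusted p = 0.290). In each of the 3 the ventilated arrays lay above the controls without overlap, and none passed the test.

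Of the members that move or bind calcium, Pvalb had groups without overlap and Atp2a1 did not. Pvalb, parvalbumin, a calcium buffer of fast fibres and of some neurons, had signals of 24.5 and 26.7 in the controls and 32.8 and 37.5 in the ventilated rats, a log2 change of 0.46 ± 0.26 (SE; limma, adjusted p = 0.337). Atp2a1, the calcium pump that refills the sarcoplasmic reticulum of fast fibres, had 51.8 and 50.3 against 57.9 and 47.0, a log2 change of 0.03 ± 0.23 (SE; adjusted p = 0.955). Its groups overlapped, the ventilated signals lying on either side of the controls.

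**Figure D1:**
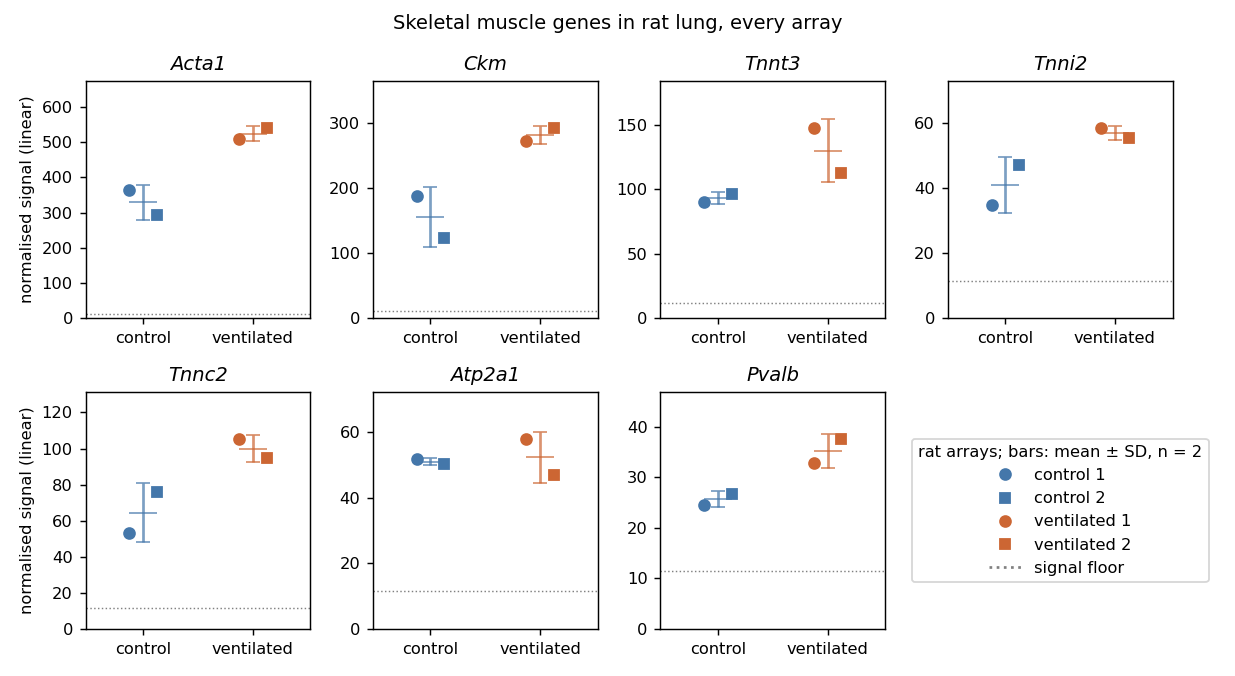
Normalised signal (linear axis from 0) of the 7 skeletal muscle genes measured in rat lung, with circles and squares for replicates 1 and 2, horizontal bars for group means and error bars for the SD (n = 2). Ventilated signals lie above both controls for every gene but Atp2a1, from 509 and 539 for Acta1 down to 32.8 and 37.5 for Pvalb.

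The rat members did not keep the same order on the control arrays. Measured as the log2 deviation from each gene's own mean over the 4 arrays, Ckm and Acta1 stood lowest on control 2 (-0.75 and -0.50). Tnnc2 and Tnni2 stood lowest on control 1 (-0.59 and -0.46). On ventilated 1 the 7 deviations ran from 0.13 for Pvalb to 0.43 for Tnnt3, and on ventilated 2 from -0.14 for Atp2a1 to 0.49 for Ckm. The summed signal of the members was 806 and 713 on the controls and 1182 and 1178 on the ventilated arrays. This sum is of linear signals and follows the brightest members most, Acta1 (means of 329 and 524) and Ckm (155 and 281). In whole tissue, more cells of a type and more RNA per cell cannot be told apart.

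Of 11 tested rat genes for sarcomere proteins outside the 9 members, 9 had a log2 change above 0, against 49.3% of all genes, with a median of 0.40. Tcap was called higher, where 2.48% of all genes were, and none was called lower. Tcap, which caps titin at the Z-disc, rose from 44.2 and 39.6 to 114 and 108, a log2 change of 1.41 ± 0.20 (SE; limma, adjusted p = 0.0192). Myh2, a myosin heavy chain of fast oxidative fibres, had signals of 2.43 and 3.20 in the controls, both under the floor, and 23.5 and 25.5 in the ventilated rats, at least 2.14-fold higher against the floor. It passed the filter only through its ventilated arrays, so its test is not given. Myh1, another fast myosin heavy chain, had 43.1 and 46.1 against 88.5 and 70.4, and the Z-disc gene Ldb3 had 22.8 and 16.4 against 38.8 and 44.2, with limma adjusted p of 0.0902 and 0.0848. These 4 were named by their small p. Over the 11 tested genes, 8 had both ventilated arrays above both controls, where 27.8% of all genes did. In 1 both lay below, where 1054 of all 3876 genes did. The 3 counts of these 11 genes and their median include Myh2, whose direction was fixed by how it passed the filter.

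Energy genes of muscle included 3 that were called higher in the ventilated rats, where 2.48% of all genes were. Of 12 tested, 9 had a log2 change above 0, against 49.3% of all genes, with a median of 0.52. The 9 include Eno3, with 2.225 and 5.6 in the controls, under the floor, and 31.65 and 14.6 in the ventilated rats. Eno3 passed the filter only through its ventilated arrays, so its direction was fixed by the filter. Ckmt2, the mitochondrial creatine kinase of striated muscle, rose by 0.95 ± 0.19 on the log2 scale (SE; limma, adjusted p = 0.0411), from 60.9 and 59.6 to 119 and 114. Fabp3, a fatty acid binding protein of heart, muscle and brown fat, rose by 2.06 ± 0.21 (SE; adjusted p = 0.00838), and Gpd1, a glycerol phosphate enzyme abundant in fat as well as muscle, by 3.18 ± 0.25 (SE; adjusted p = 0.00364). Cox6a2, the striated muscle subunit of cytochrome oxidase, had signals of 168 and 167 against 273 and 260 (adjusted p = 0.0536).

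Of 9 tested rat genes of calcium release, membrane excitation and the nerve-muscle junction, 1 had a log2 change above 0, against 49.3% of all genes. The median was -0.23, and none was called, where 2.48% of all genes were called higher and 3.3% lower. In 3 of the 9 both ventilated arrays lay below both controls, where 1054 of all 3876 genes did. In none did both lie above, where 27.8% of all genes did. The difference from the sarcomere genes was not tested. Casq1, the calcium store protein of fast fibres, had 67.1 and 51.4 in the controls against 44.9 and 37.4, and Scn4a, the sodium channel of skeletal muscle, 88.3 and 108 against 65.2 and 77.3, with limma adjusted p of 0.267 and 0.247. Of the lineage and growth control genes, 4 of 8 passed the filter, 1 with a log2 change above 0, against 49.3% of all genes. The myogenic factor genes Myod1, Myog and Myf6 stayed out of the test, with signals from 3.48 to 14.7 on the rat arrays (chosen after their values were seen).

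Slow fibre and cardiac genes were mixed in the rat. Over all rat genes tested, 49.3% had a log2 change above 0, 2.48% were called higher and 3.3% lower. Of 10 tested genes shared by slow fibres and heart, 8 had a log2 change above 0 (median 0.34), none was called higher, and Atp2a2, the calcium pump of slow fibres, heart and many other cells, was called lower at -0.94 ± 0.14 (SE; limma, adjusted p = 0.0208). Of 13 tested cardiac genes, 9 had a log2 change above 0 (median 0.02), and 2 were called higher. These were Nppa, the atrial natriuretic peptide gene, at 1.73 ± 0.27 (SE; adjusted p = 0.0233), and Myl4, the atrial myosin light chain gene, at 1.01 ± 0.14 (SE; adjusted p = 0.0160). In 6 of the 10 shared genes both ventilated arrays lay above both controls, and in 1 below. For the 13 cardiac genes the counts were 5 and 1, where 27.8% of all 3876 genes lay above and 1054 below. Smpx had 44.5 and 34.5 against 76.4 and 77.5, and Ankrd1 105 and 128 against 178 and 172. Myl2 had 79.8 and 58.9 against 108 and 99.8. The limma adjusted p were 0.0675, 0.109 and 0.164. Among cardiac genes, Tnni3 lay above and Slc8a1 below (adjusted p = 0.167 and 0.172). The summed cardiac signal was 2892 and 2979 on the controls against 3561 and 3402. The cardiac myosin gene Myh6 (38.0 and 38.2 against 39.2 and 36.5) and the slow myosin gene Myh7 (73.7 and 61.7 against 55.8 and 71.0) overlapped between groups (both chosen after their values were seen).

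Most of the tested brown fat and thymus markers were called higher on the same rat arrays. Of all genes, 2.48% were called higher and 3.3% lower, and 49.3% had a log2 change above 0. Brown fat markers had 4 of 4 tested genes above 0, 3 of them called higher, and a summed signal of 286 and 238 on the controls against 1835 and 1845. Ucp1, the uncoupling protein of brown fat, had a log2 change of 4.17 ± 0.17 (SE; limma, adjusted p = 0.000322). Thymus and T cell markers had 8 of 8 above 0, 7 called higher, and a summed signal of 819 and 681 against 6996 and 7795, and the thymocyte recombinase gene Rag1 stayed under the floor on every array (chosen after its values were seen). White fat markers had 2 of 6 above 0, with 2 called higher and 1 lower, and liver markers had 7 of 8 above 0, with 1 called higher. Krt5, a keratin of basal squamous and airway cells, had 4.48 and 8.45 in the controls, under the floor, and 96.1 and 84.0 in the ventilated rats, at least 7.86-fold higher, and passed the filter only through the ventilated arrays. Krt4, a keratin of upper squamous layers, fell by 3.19 on the log2 scale (limma, adjusted p = 0.00940).

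Cartilage and bone markers, which tissue of the rib cage would hold, were dim. Of 8 on the rat array, 4 passed the filter and none was called. Of these 4, 3 had a log2 change above 0, against 49.3% of all genes, with a median of 0.29. The summed signals were 87.0 and 66.7 against 114 and 89.6, the ventilated arrays standing at 1.49 and 1.17 times the control mean. Mesothelial markers had 2 tested genes and no call, at 431 and 484 against 466 and 446 in sum. Of these, Wt1 passed the filter only through the ventilated arrays. Smooth muscle markers had 2 of 6 above 0 and 1 called lower, where 3.3% of all genes were. Lung epithelial and endothelial markers had 0 of 10 above 0, with 2 called lower, and summed signals of 18995 and 18922 against 14969 and 16540. The part of carried-over muscle of the chest wall or diaphragm, of heart or of mediastinal fat and thymus in the members' values was not tested.

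**Figure D2:**
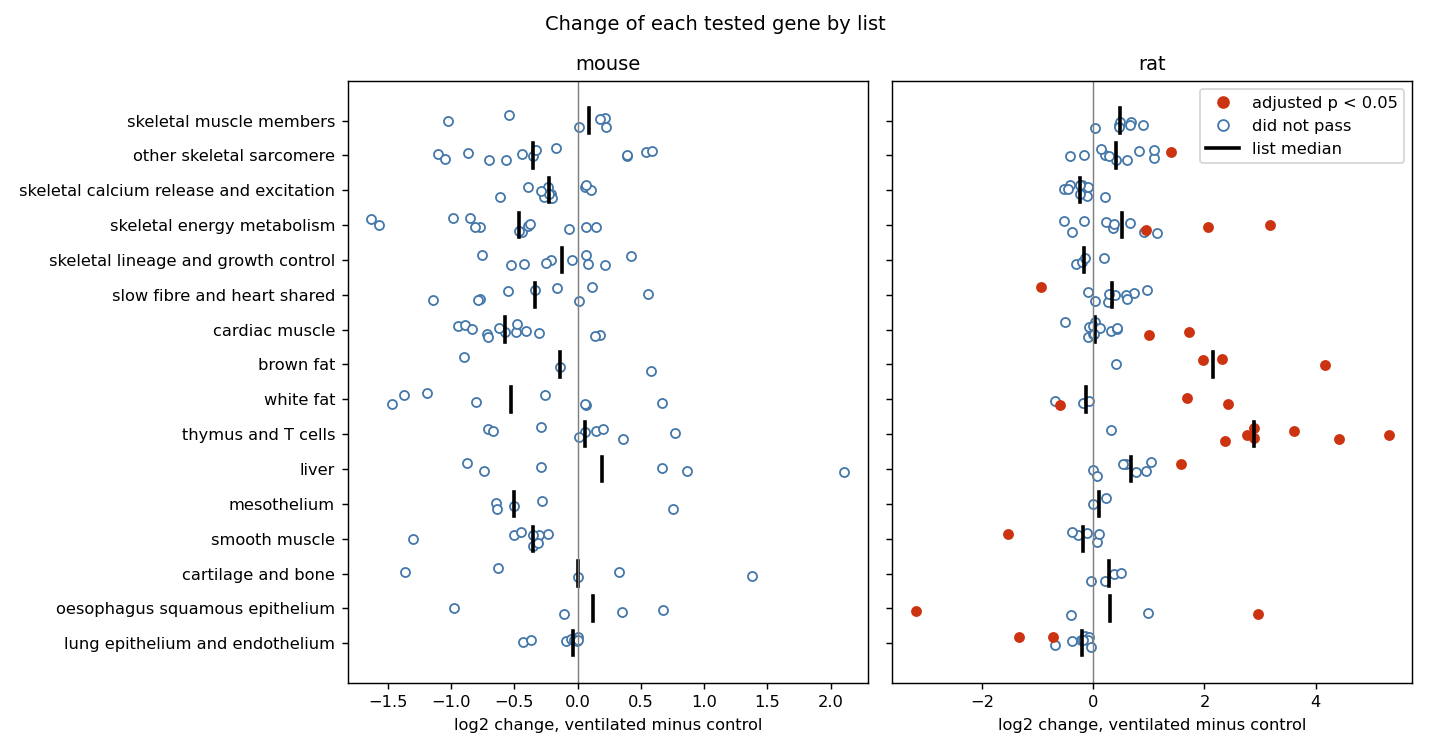
Log2 change (ventilated minus control) of every tested gene by list, mouse at left and rat at right on separate axes, with filled red points for an adjusted p under 0.05 and a black bar for each list's median. The rat skeletal muscle members lie between 0.03 and 0.89 with none filled, and the rat thymus and T cell markers reach 5.32.

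In the mouse, 6 of the 9 genes passed the filter, their probe sets lying between the 37.3rd and the 88.5th percentile of mean signal, and Acta1, Tnnt3 and Tnni2 did not, their mean signals lying under the floor of 14.2. Of the 6, 4 had a log2 change above 0, against 46.8% of all 6889 genes tested, with a median of 0.09 for the members and -0.03 for all genes. None was called by limma, as was true of all genes (0% called), and none had an unadjusted p under 0.05, where 2.58% of genes did. Only Pvalb among the 6 had both ventilated arrays above both controls, where 13% of genes did. The limma adjusted p was 0.9997 for each of the 6.

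Mb, myoglobin, the oxygen store of heart and oxidative muscle, had mouse signals of 54.4 and 255 in the controls and 117 and 55.9 in the ventilated mice, a log2 change of -0.54 ± 0.76 (SE). Control 2 stood far above the other control, and without it the log2 change was 0.56. Cardiac markers were highest on the same array, with summed signals of 3842 and 7572 on the controls and 3976 and 3230 on the ventilated arrays. The ratio of 3′ to 5′ signal for Gapdh, a measure of RNA integrity, was 2.96 and 1.16 on the controls and 1.53 and 2.48 on the ventilated arrays. The same ratio for b-Actin was 2.18 and 1.88 against 1.80 and 2.21. The array with the brightest Mb signal had the lowest Gapdh ratio but not the lowest b-Actin ratio, and the part of RNA integrity or of cardiac muscle in the Mb values was not tested. Ckm, the other energy gene, had 27.6 and 29.6 against 47.9 and 23.4, a log2 change of 0.23 ± 0.48 (SE), with ventilated 1 highest and ventilated 2 lowest of the 4 arrays.

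Of the contractile genes of the mouse, Tnnc2 and Mylpf were above the floor on all 4 arrays and Acta1, Tnnt3 and Tnni2 were not. Acta1 had 4.08 and 6.38 in the controls and 34.6 and 7.98 in the ventilated mice, so 1 of 4 arrays was above the floor. Ventilated 1, that array, also had hybridisation spike-in signals 2.62 times those of the controls. Tnnt3 had 4.58 and 14.98 against 6.58 and 10.9, and Tnni2 had 2.48 and 3.68 against 3.15 and 6.58. Tnnc2 had 52.1 and 38.5 against 53.6 and 47.7, a log2 change of 0.18 ± 0.38 (SE). Mylpf, the regulatory light chain of fast myosin, had 66.4 and 36.3 against 37.9 and 64.6, a log2 change of 0.01 ± 0.48 (SE), with a control and a ventilated array high.

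Mouse Atp2a1 had 29.6 and 68.7 in the controls and 7.65 and 34.6 in the ventilated mice, a log2 change of -1.02 ± 0.62 (SE), with ventilated 1 under the floor. Without ventilated 1 it was -0.38 and without control 2 -0.40, without either other array it was -1.64 or -1.65, and with the floor at the 40th percentile it was -0.46. Pvalb had 350 and 420 against 463 and 428, a log2 change of 0.22 ± 0.26 (SE), and was the brightest of the mouse members' probe sets relative to all probe sets, at the 88.5th percentile of mean signal. Its other probe set gave 3.10 and 5.13 against 18.9 and 10.3.

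Probe sets of a mouse gene disagreed in level. A dimmer probe set existed for Ckm, Mb, Tnnc2, Atp2a1, Pvalb and Mylpf. Those of Mb, Tnnc2 and Mylpf were under the floor on all 4 arrays, at most 2.38 for Mb, 7.15 for Tnnc2 and 1.38 for Mylpf. The dimmer Ckm probe set, with 15.4 and 22.7 in the controls and 14.4 and 16.3 in the ventilated mice, had a log2 change of -0.29 ± 0.41 (SE), opposite in sign to the brighter one. Several of these names end in _f_at, _i_at or _s_at. The maker uses these suffixes for probe sets whose probes are shared with other sequences or incomplete. Among them are the brighter probe sets of Tnnc2, Atp2a1 and Pvalb.

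**Figure D3:**
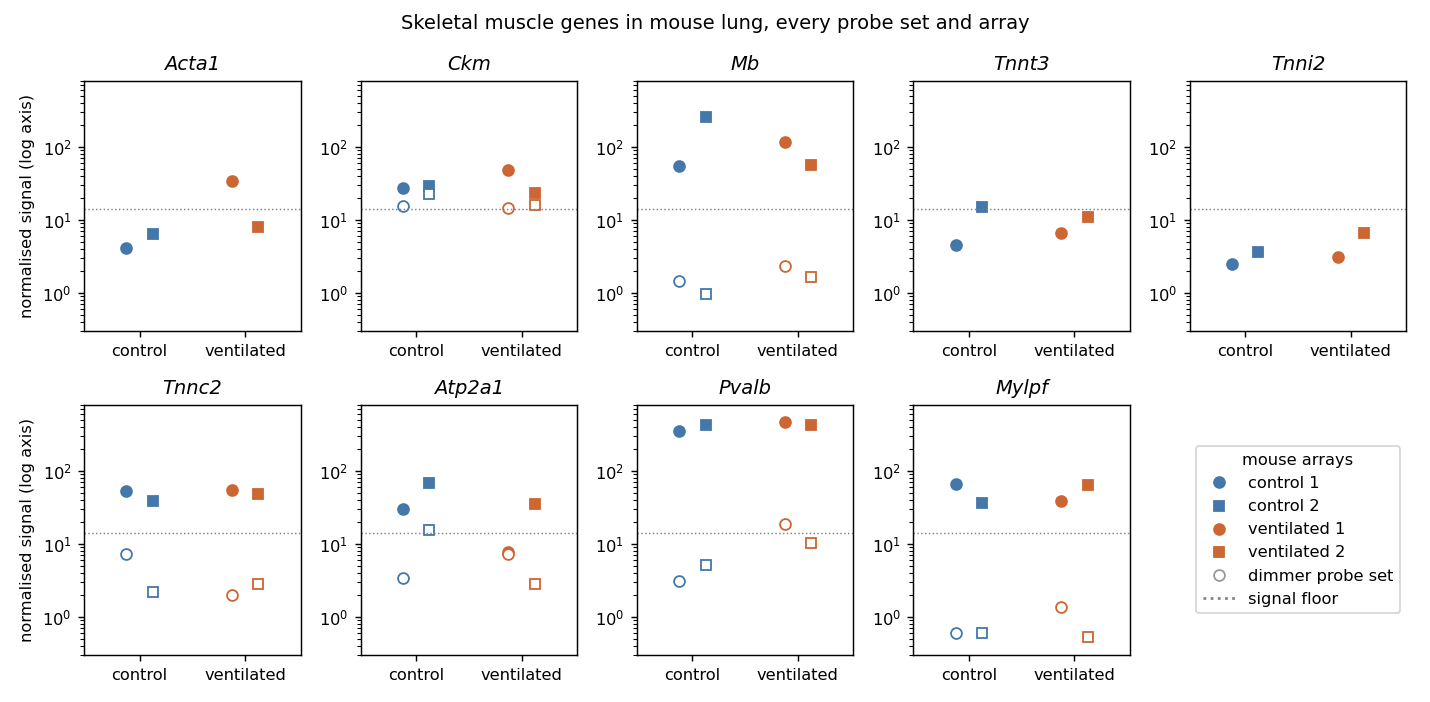
Normalised signal (log axis) of all 15 mouse probe sets of the 9 genes, filled for the brightest probe set of a gene and open for a dimmer one, with circles and squares for replicates 1 and 2 and a dotted line at the floor of 14.2. Mb is highest on control 2 at 255 and Acta1 exceeds the floor on ventilated 1 alone, at 34.6.

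Other skeletal muscle genes of the mouse gave no call in any list. Of 13 tested sarcomere genes, 4 had a log2 change above 0, against 46.8% of all genes, with a median of -0.35. Myl1, the essential light chain of fast myosin, had 92.5 and 131 against 60.7 and 46.8, a log2 change of -1.05 ± 0.37 (SE; limma, unadjusted p = 0.0281). Of 11 tested genes of calcium release and excitation, 3 were above 0 (median -0.23), and of 10 lineage genes, 4 were (median -0.12). The 11 include Ryr1, which passed the filter only through the controls. Of 13 energy genes, 2 were above 0 (median -0.46), the lowest being Car3, a carbonic anhydrase of slow muscle and fat, at -1.63 ± 0.45 (SE). The 13 include Pgam2 (6.31 and 55.8 against 7.21 and 4.10), which passed the filter only through control 2. Energy genes had a summed signal of 1623 and 2538 on the controls against 1427 and 1380, again highest on control 2.

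Neighbouring tissue markers of the mouse were not called either. Of all mouse genes tested, 46.8% had a log2 change above 0. Cardiac genes had 2 of 13 above 0 (median -0.57), genes shared by slow fibres and heart 3 of 9 (median -0.34), brown fat 1 of 3 and white fat 3 of 8. Thymus and T cell markers had 6 of 9 above 0 and liver markers 3 of 6, mesothelial markers 1 of 5 and smooth muscle markers 0 of 8. Cartilage and bone markers had 3 of 5 above 0 and squamous markers 2 of 4. Among the genes counted, Tat and Fga (liver) and Ibsp (bone) passed the filter only through ventilated arrays, and Krt13 (squamous) only through controls. Lung markers had 1 of 8 above 0, with summed signals between 28008 and 30494 on the 4 arrays. The brown fat gene Ucp1 had signals of 20.0 and 9.03 in the mouse controls against 5.63 and 14.4, and did not pass the filter (chosen after its values were seen).

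**Figure D4:**
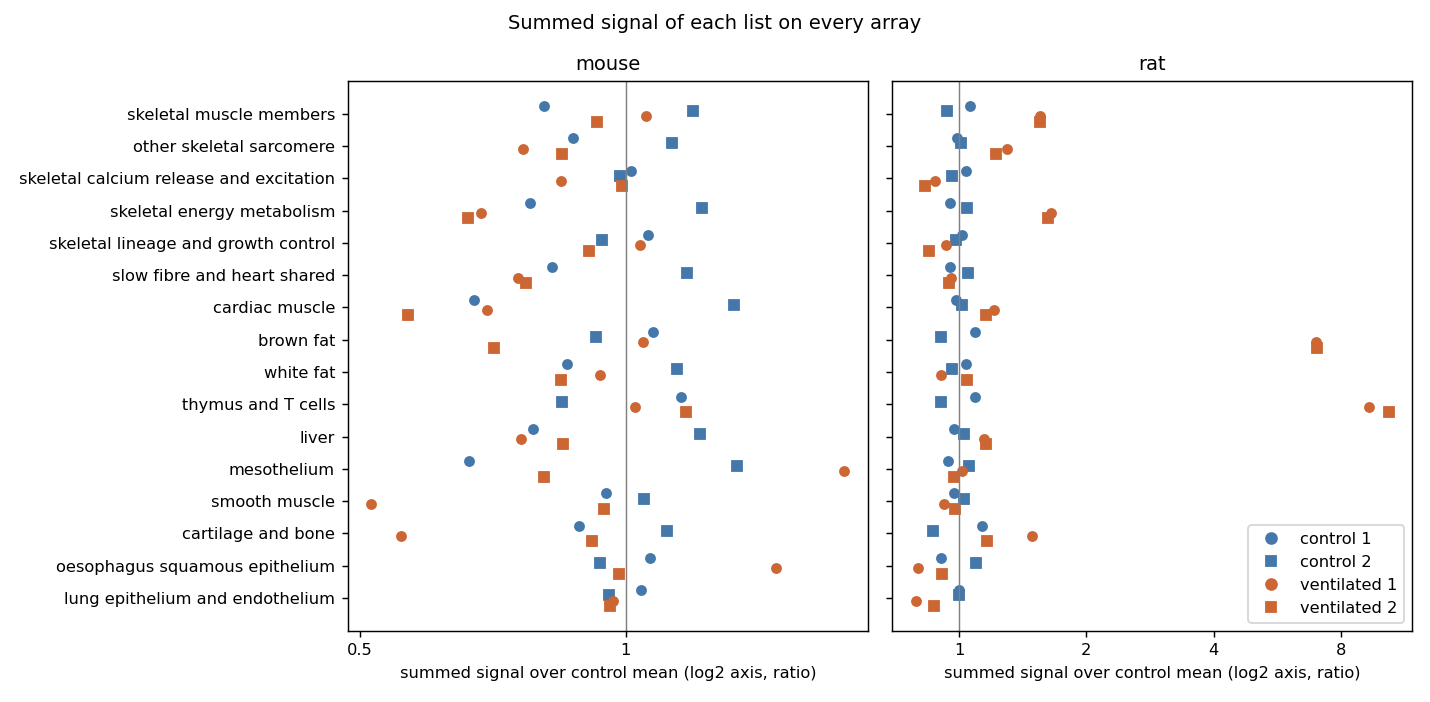
Summed signal of each list on every array, divided by the mean of that species' controls (log2 axis), mouse at left and rat at right. Sums are of linear signals, so the brightest genes of a list weigh most. The rat skeletal muscle members stand at 1.56 and 1.55 on the ventilated arrays, against 7.00 and 7.04 for brown fat and 9.33 and 10.4 for thymus and T cells, and in the mouse control 2 is highest for the members (1.19) and for cardiac muscle (1.33).

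The difference between species was tested for the 4 members that passed the filter in both. The mouse change minus the rat change was -0.66 ± 0.54 for Ckm, -0.48 ± 0.44 for Tnnc2, -0.24 ± 0.34 for Pvalb and -1.05 ± 0.74 for Atp2a1 on the log2 scale (SE). The limma adjusted p ran from 0.605 to 0.825, so none passed, and 0.133% of the 2257 genes in both species did. None of the 4 had an unadjusted p under 0.05, where 12.7% of those genes did. All 4 differences were below 0, on arrays that the 4 genes share. The share of all 2257 genes with a difference below 0 was not counted, so the shared direction is not read as a result. Tidal volume, time, strain, array and the controls' cannula differ along with species.

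The genes whose profile over the 4 rat arrays lay nearest to the members' median were Arl11, Uqcrfs1, Rps27l, Psmb5 and Rhd. The root mean square difference was 0.0254 to 0.0316 on the log2 scale among 3869 genes, against 0.255 for the members' own median profile around its mean. In the mouse they were Trio, Psmd8, Slc25a47, Cinp and Zfp954, at 0.0159 to 0.0257 among 6883 genes. There the members' median profile was itself nearly flat, at 0.108, since single members peaked on different arrays.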

How the data were processed

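Per the labels, lung RNA was amplified to biotinylated cRNA and hybridised to 1 array per sample. The deposited values are linear probe-set intensities with trimmed means of 148.71 to 149.39 per array. No source used here names the software, and no detection calls were used. Probe sets were named from the supplied array annotation, and 66 mouse control probe sets were not tested.

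Arrays were quantile-normalised within species. Values below a floor, the 25th percentile (mouse 14.2, rat 11.5), were set to it before log2, but printed signals are not floored. The brightest probe set stood for a gene, and genes whose mean did not exceed the floor were dropped, which left 6889 mouse and 3876 rat genes. Ventilated minus control was fitted per species in limma (version 3.58.1, R 4.3.3), using lmFit and eBayes with a variance trend, two-sided, with Benjamini-Hochberg adjustment over all genes and a threshold of 0.05. The species difference was the interaction over genes matched by symbol. The number of arrays, 2 a group, limits the precision. The pipeline was tested on simulated data.

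The members, lists and tests were chosen with earlier results of these data known. The rule for named genes took all members, at most 4 genes of each list by smallest p plus called genes, and the 5 nearest profiles per species. Alternatives were other scalings, floors, filters, probe-set rules and variance priors, an adjusted p under 0.10, replicate blocks and each array left out.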

Additional observations from a re-analysis of the deposited data

Results flagged for a closer look

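Mouse ventilated 1 stood apart in its spike-in controls, bacterial and phage transcripts added at hybridisation that enter no comparison. Over 9 probe sets, their median signal was 2.618 times the control mean on that array and 0.9596 times on ventilated 2. Mouse Acta1 was above the floor on ventilated 1 alone, and Atp2a1 was under the floor there alone. The part of this array difference in those values was not tested.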

How the results depend on the processing

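Over 309 values of single members under the alternatives, 294 kept their direction and side of the threshold, 8 changed direction and 7 came past the threshold, all 7 being rat Acta1 or Ckm. The count of 6 of 7 rat members with ventilated arrays above the controls was 6 under each other scaling, floor and probe-set rule and without a filter, 5 of 6 with a filter at the 50th percentile, and 6 to 7 without any 1 rat array. Rat Acta1 passed under a common median (adjusted p = 0.0335), cyclic loess (0.0487), the filter at the 50th percentile (0.0487), crossed replicate numbers (0.0475) and the threshold of 0.10. Rat Ckm passed under a common median (0.0465) and that threshold. Rat Atp2a1 was -0.0436 on the values as deposited, and mouse Ckm was -0.0296 with the mean of probe sets. Leaving out 1 array gave rat log2 changes of 0.52 to 0.85 for Acta1, 0.59 to 1.21 for Ckm, 0.39 to 0.92 for Tnnc2, 0.28 to 0.67 for Tnnt3, 0.27 to 0.71 for Tnni2, 0.36 to 0.55 for Pvalb and -0.12 to 0.18 for Atp2a1. In the mouse they were -1.65 to -0.38 for Atp2a1, 0.08 to 0.35 for Pvalb, -0.29 to 0.73 for Ckm, -1.67 to 0.56 for Mb, -0.42 to 0.45 for Mylpf and -0.0427 to 0.40 for Tnnc2. The members' median was 0.57 in the rat and -0.16 in the mouse with the filter at the 50th percentile, which tests fewer members, and -0.0118 in the mouse with the mean of probe sets. Without 1 array it was 0.39 to 0.64 in the rat and -0.10 to 0.27 in the mouse. The rat count of 224 called genes was 23 with a floor at the 40th percentile, 39 without a filter, 61 without the variance trend and 479 at the threshold of 0.10. It was 0 without any 1 of the 4 rat arrays (fewer samples), so the called rat genes above rest on all 4. The count of 3 genes differing between species was 10 with a common median, 6 as deposited, 11 and 7 with floors at the 40th percentile and of 1, 22 without a filter, 5 with the mean of probe sets, 1 without the trend, 26 at the threshold of 0.10, and 0 to 80 without 1 array. The cause was not tested elsewhere. Same-numbered arrays share a number only, their deviations correlating at -0.284 in the mouse and -0.106 in the rat. The replicate block gave 0 mouse calls, 139 rat calls and 0 species differences, and crossed numbers, chosen after seeing the data, 0, 239 and 38.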
